A study of Mus musculus with 8 samples.

Results

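The genes described here encode the nuclear subunits of the mitochondrial respiratory chain and of ATP synthase. They were chosen by symbol: every gene starting with Nduf, Uqcr or Atp5, every gene starting with Cox followed by a digit from 4 to 8, and Sdha, Sdhb, Sdhc, Sdhd, Cyc1 and Cycs, each measured by a probe set that names only that gene. This gave 91 of the 22180 genes on the array, of which 87 passed a filter on dim signals and were tested. The 4 that did not pass were Cox7b2, Cox8c and the pseudogenes Atp5c1-ps and Uqcrh-ps1. The symbols do not match the name "subunit" throughout, because 8 Nduf genes (Ndufaf1 to Ndufaf8) encode assembly factors that build complex I and do not remain in it. They are given as a group of their own. Ndufa4 and its paralogue Ndufa4l2 carry complex I names and were placed with complex IV, where the Ndufa4 protein resides.

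The tissue was medulloblastoma, a cerebellar tumour, from untreated mice at postnatal day 15. All 8 mice were Math1-Cre/SmoM2: Cre recombinase under the Math1 (Atoh1) promoter turns on SmoM2, a constitutively active Smoothened, in granule neuron precursors, so the Sonic hedgehog pathway drives the tumour. Of these, 4 mice were Math1-Cre/SmoM2/Bcl2l1 f/f, in which Cre also deletes Bcl2l1, and 4 were controls that kept it. Because Math1 drives Cre, cells of other lineages in the tumour keep Bcl2l1 in both groups. Each animal gave 1 Affymetrix whole-transcript array.

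The respiratory chain passes electrons from NADH through complex I, or from succinate through complex II, to complex III, cytochrome c and complex IV, where oxygen is reduced. Protons pumped on the way drive ATP synthase, also called complex V. Most subunits are encoded in the nucleus and imported, and a few come from mitochondrial DNA. Bcl2l1 encodes BCL-xL, an anti-apoptotic protein of the outer mitochondrial membrane that restrains BAX and BAK, whose activation releases cytochrome c from the space where it serves the chain.

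Values are log2 expression values, and a change is Bcl2l1-deleted minus control. The median tested gene changed by 0.17, so changes are given relative to it unless called fitted. A gene was called when its limma p, adjusted by Benjamini and Hochberg over 15526 tested genes, was under 0.05. The adjusted p and the SE belong to the fitted change. Bcl2l1 itself read 5.46, 5.46, 5.69 and 5.32 in the deleted tumours and 6.88, 6.57, 6.93 and 6.98 in the controls, a relative change of -1.53 (SE 0.16, limma adjusted p = 0.00509; exact two-sided permutation p = 0.0286, the smallest that 70 regroupings can give). Whether its probe set lies in the deleted part was not checked here.

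The arrays were not of equal contrast. In control replicate 2 the interquartile range over genes was 2.40, against 3.29 to 3.66 on the other 7 arrays. The median of 1394 olfactory and vomeronasal receptor genes, which the tissue is not known to use, was 3.60 there against 2.79 to 3.09 elsewhere. Its median over tested genes was 6.26, against 6.73 to 6.92. This array moves with the control group in many results below, and its part in them was not tested. Values without it are given beside the 3 called members and beside some of the other results. The tumours are bulk tissue, so fewer cells of a type and less RNA per cell cannot be told apart.

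As a set, the respiratory chain genes moved little. Of 87 tested members 3 were called higher (3.45%) and 0 lower, against 4.93% higher and 1.6% lower of all tested genes; over both directions 6.52% of all tested genes were called. The members called were Ndufaf1, Ndufaf2 and Ndufb6. All belong to complex I or its assembly, which account for 32 subunits and 8 Ndufaf genes of the 87 tested members. At an unadjusted limma p under 0.05, 15 members were higher and 2 (Cox8b and Cox7a2l) lower, against 23.1% and 7.32% of all tested genes, and an ordinary linear model in place of limma called 0 members in either direction. The median relative change over members was 0.02 (0.05 without control replicate 2), with 49 above the median tested gene and 38 below it. The extremes were -0.73 (Cox8b) and 1.02 (Ndufaf1). Cox8b passed the dim filter (4.38) only through the controls, with a mean of 4.17 in the deleted tumours. Without the assembly factors, the 79 subunit and cytochrome c genes had a median relative change of 0.01, with 42 above and 37 below. A relative change beyond 0.5 in size was seen in 9 members (10.3%), against 21.8% of all tested genes.

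The design bounds most members within a doubling in either direction, by an interval for each gene alone. The 95% confidence interval of the fitted change lay within -1 and 1 for 79 of 87 members (90.8%), against 75.3% of all tested genes. The SE of a member's change had a median of 0.17 and ranged from 0.13 to 0.35. A change of a doubling was therefore outside the interval for most members, while changes of 0.17 were not.

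**Figure D1:**
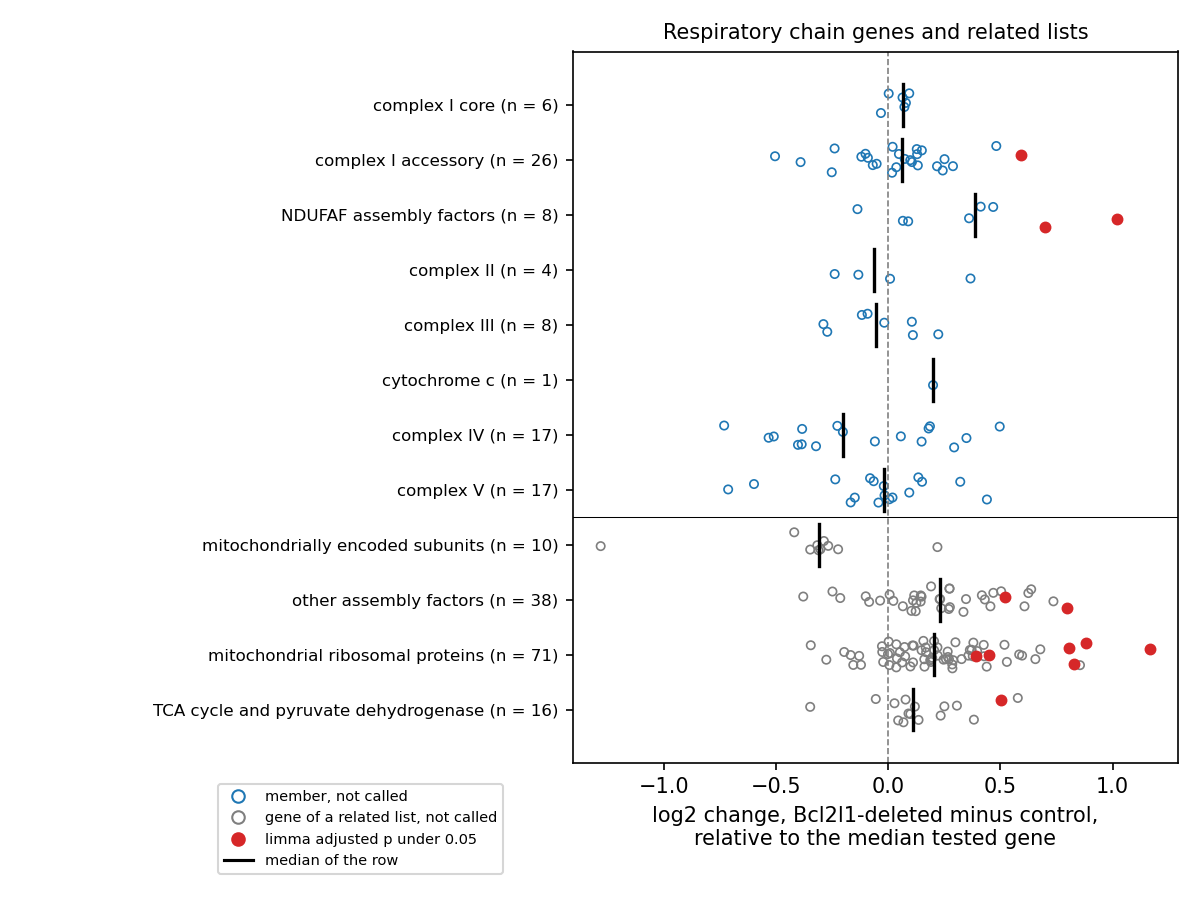
Each point is a tested gene, placed by its log2 change (Bcl2l1-deleted minus control) relative to the median tested gene, with respiratory chain genes above the line and related lists below it; black bars are medians and filled points are genes with a limma adjusted p under 0.05. Subunits of complexes I to V scatter around 0, with medians from -0.20 (complex IV) to 0.07 (complex I core), while the 8 NDUFAF assembly factors have a median of 0.39.

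Among the members, the largest increases lay in the complex I assembly factors named Ndufaf. Complex I assembly factors with other names fall outside the symbol rule and are counted further below. Of 8 Ndufaf genes tested, 2 rose (Ndufaf1 and Ndufaf2, 25%) and none was called lower. Of all tested genes 4.93% were called higher and 1.6% lower. At an unadjusted limma p under 0.05, 5 were higher (62.5%) and 0 lower, against 23.1% and 7.32% of all tested genes. In 3 of the 8 (37.5%) every deleted tumour lay above every control, against 19% of all tested genes. The median relative change of the 8 was 0.39, with 7 above the median tested gene. That median lay between 0.28 and 0.52 under 21 other settings of the analysis.

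Ndufaf1 (probe set 17389928), which helps assemble the membrane arm of complex I, read 8.56, 8.33, 8.64 and 8.40 in the deleted tumours and 8.13, 6.33, 7.14 and 7.55 in the controls. Every deleted tumour lay above every control, and control replicate 2 was the lowest array. The means were 8.48 ± 0.14 and 7.29 ± 0.76 (SD, n = 4 each), a relative change of 1.02 (SE 0.31, limma adjusted p = 0.0478). Without control replicate 2 the relative change was 0.79 (adjusted p = 0.0287). The adjusted p passed the threshold narrowly and reached 0.182 with the receptor median of each array as a covariate.

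Ndufaf2 (probe set 17296104), a chaperone of late complex I assembly, read 5.81, 5.74, 5.85 and 5.47 in the deleted tumours and 4.48, 4.72, 5.34 and 4.84 in the controls. The groups did not overlap, and control replicate 2 lay inside the range of the other controls. The means were 5.72 ± 0.17 and 4.85 ± 0.36 (SD, n = 4 each), a relative change of 0.70 (SE 0.20, limma adjusted p = 0.0325). Without control replicate 2 the relative change was 0.75 (adjusted p = 0.0268).

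The other Ndufaf genes were not called. Ndufaf4, which acts with Ndufaf3 on the ubiquinone-binding module, read 7.32, 7.17, 7.42 and 7.18 in the deleted tumours and 6.99, 6.86, 6.69 and 6.42 in the controls. Its groups did not overlap, its relative change was 0.36, and its limma adjusted p was 0.0696. Ndufaf3 read 9.45, 9.24, 9.28 and 9.09 against 9.17, 8.39, 8.55 and 8.61, a relative change of 0.41 with an adjusted p of 0.0781; control replicate 1 lay within the deleted range and the other 3 controls below it. Ndufaf8, the partner of the hydroxylase Ndufaf5, had a relative change of 0.47 (adjusted p = 0.16) and Ndufaf5 one of -0.14 (adjusted p = 0.898). Ndufaf6 and the methyltransferase Ndufaf7 had relative changes of 0.09 and 0.06.

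Beside these, 1 subunit was called. Ndufb6 (probe set 17424023), an accessory subunit of the membrane arm of complex I, read 8.48, 8.47, 8.34 and 8.41 in the deleted tumours and 8.21, 7.40, 7.42 and 7.62 in the controls. All 4 deleted tumours were higher than all controls, and control replicate 1 was the nearest to them. The means were 8.43 ± 0.06 and 7.66 ± 0.38 (SD, n = 4 each), a relative change of 0.59 (SE 0.19, limma adjusted p = 0.0415). Without control replicate 2 it was also 0.59 (adjusted p = 0.0365).

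None of the 3 calls was firm. Across 21 other settings the call was lost in 11 for Ndufaf1, in 13 for Ndufb6 and, of the 20 settings that tested it, in 10 for Ndufaf2, while none changed sign. Leaving out any 1 of the 4 deleted tumours, or control replicate 4, left 0 members called. Leaving out control replicate 3 left only Ndufaf2. Leaving out control replicate 1 gave 11 members higher and 1 lower, and leaving out control replicate 2 gave 6 higher, namely Ndufaf1, Ndufaf2, Ndufaf4, Ndufb6, Sdhd and Atp5pb.

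**Figure D2:**
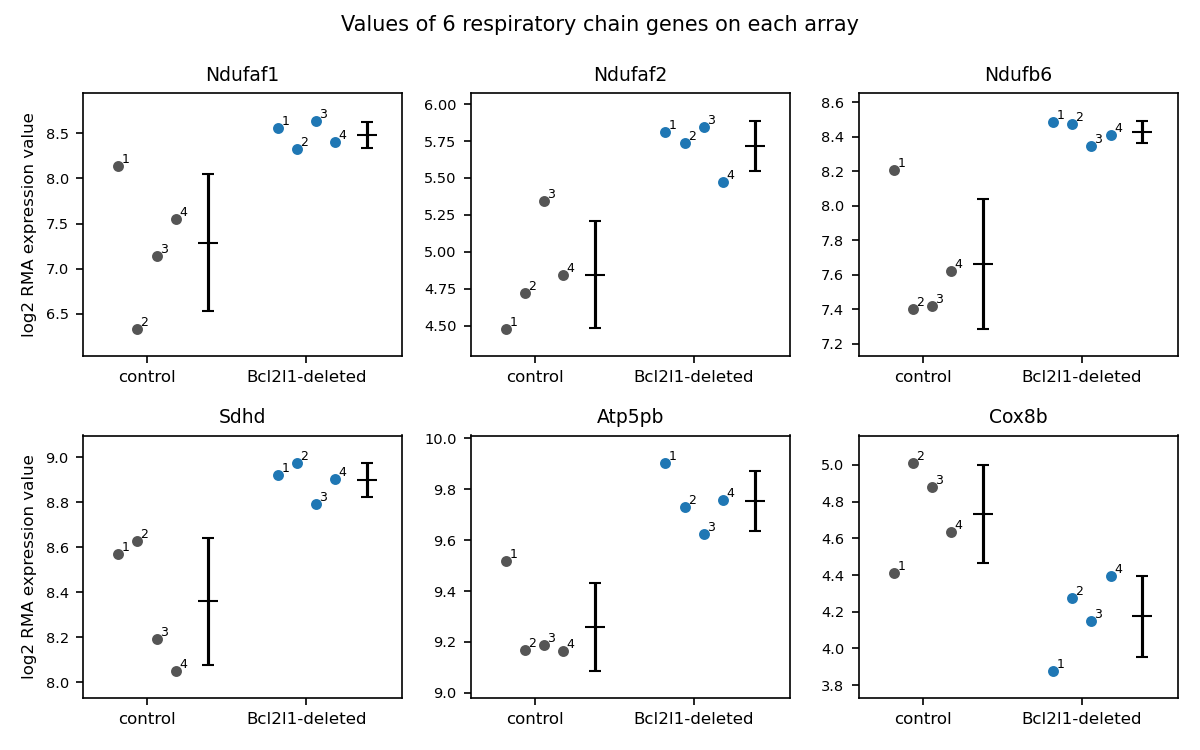
Log2 expression values of 6 genes on each of the 8 arrays, with replicate numbers beside the points and the mean ± SD (n = 4) to their right; each panel has its own axis, which does not start at 0. In Ndufaf1, Ndufaf2, Ndufb6, Sdhd and Atp5pb every deleted tumour lies above every control, in Cox8b below, and only the first 3 genes pass the adjusted threshold. The mean of the deleted tumours in Cox8b lies under the limit of the dim filter (4.38).

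The regulatory sequence in front of these genes was read from RefSeq promoters (build GRCm38.p6). Shown are the 250 bases before the annotated start, written in the direction of the gene. They are given for the 3 called genes and for Ndufaf4, the uncalled Ndufaf gene nearest to the threshold. Capitals mark a match to the motif of ETS factors such as GABP (CCGGAAG) or, in Ndufaf4, to that of NRF1, which regulates many respiratory genes; the letters searched for NRF1 are those in capitals there. Both strands were searched.
Ndufaf1, chr2:119662835-119663084, minus strand: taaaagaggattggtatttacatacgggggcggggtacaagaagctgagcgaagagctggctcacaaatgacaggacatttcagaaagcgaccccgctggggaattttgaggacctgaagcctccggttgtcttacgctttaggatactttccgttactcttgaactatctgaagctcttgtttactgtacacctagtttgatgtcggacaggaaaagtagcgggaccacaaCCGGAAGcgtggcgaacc
Ndufaf2, chr13:108158626-108158875, minus strand: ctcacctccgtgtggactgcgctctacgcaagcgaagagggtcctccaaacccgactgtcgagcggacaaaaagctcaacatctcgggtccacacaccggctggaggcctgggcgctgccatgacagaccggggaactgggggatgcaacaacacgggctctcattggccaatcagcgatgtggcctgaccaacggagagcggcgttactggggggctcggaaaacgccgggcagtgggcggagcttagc
Ndufaf4, chr4:24897833-24898082, plus strand: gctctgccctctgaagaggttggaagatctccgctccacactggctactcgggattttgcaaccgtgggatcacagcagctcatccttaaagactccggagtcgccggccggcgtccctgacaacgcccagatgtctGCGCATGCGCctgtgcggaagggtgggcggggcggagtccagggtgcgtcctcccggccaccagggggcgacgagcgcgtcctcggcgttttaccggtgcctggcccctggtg
Ndufb6, chr4:40279422-40279671, minus strand: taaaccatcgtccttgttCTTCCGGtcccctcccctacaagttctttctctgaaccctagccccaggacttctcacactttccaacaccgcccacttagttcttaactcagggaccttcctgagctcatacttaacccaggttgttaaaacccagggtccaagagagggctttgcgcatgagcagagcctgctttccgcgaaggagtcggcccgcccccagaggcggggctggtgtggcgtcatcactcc
The ETS motif began 18 bases before the start of Ndufaf1, and on the opposite strand 232 bases before that of Ndufb6. The NRF1 motif began 113 bases before the start of Ndufaf4, and the Ndufaf2 window held neither.

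Over all members these motifs were more frequent than over all promoters. Promoters were found for 73 of 89 members other than pseudogenes, 78 in all, in windows from 250 bases before to 50 after the start. The NRF1 motif stood in 8.97% of them, against 0.971% of all 32851 promoters of that length and 1.33% of the 21262 of protein-coding genes. The ETS motif stood in 24.4%, against 8.86% and 11.6%. The YY1 motif (AAGATGGCG) stood in 8.97%, against 1.4% and 1.83%. The ERR motif (TCAAGGTCA) stood in 2.56%, which is only 2 promoters, against 0.423% and 0.334%. The member shares for NRF1, ETS and YY1 rest on 7, 19 and 7 promoters. The 7 tested members with an NRF1 motif had a median relative change of -0.09, and the 65 without it 0.04. For the ETS motif the medians were 0.07 over 19 tested members with it and 0.02 over 53 without.

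The core subunits of complex I, which carry the flavin and the iron-sulfur clusters, stayed close to the median tested gene. None of 6 was called in either direction by limma, also at an unadjusted p under 0.05. Of all tested genes 23.1% were higher and 7.32% lower at that p. Relative changes of the 6 core subunits ran from -0.03 (Ndufs7, adjusted p = 0.558) to 0.09 (Ndufs1). Ndufs1, the largest of the iron-sulfur subunits, was nevertheless higher in every deleted tumour (7.66 to 7.77) than in every control (7.06 to 7.64). Its limma adjusted p was 0.273. Ndufv1, which binds FMN and receives the electrons of NADH, had a relative change of 0.00 (95% interval -0.32 to 0.32), and Ndufv2 one of 0.08 (adjusted p = 0.269), with deleted replicate 1 above the other deleted tumours.

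Among 26 accessory subunits of complex I, Ndufb6 was the only call (3.85%), against 4.93% of all tested genes higher and 1.6% lower. Of the 26, 17 lay above the median tested gene and 9 below. Ndufb11 of the membrane arm had a relative change of 0.48 (limma adjusted p = 0.0697) with overlapping groups. Ndufb7 (9.50 to 9.82 against 8.98 to 9.37) and Ndufa1 (7.21 to 7.28 against 6.57 to 7.16) did not overlap, with relative changes of 0.24 and 0.25 and adjusted p of 0.101 and 0.112. In the other direction, Ndufs5 was lower in every deleted tumour (5.20 to 5.33) than in every control (5.37 to 5.95), a relative change of -0.51 with an adjusted p of 0.185. Ndufc2 had a relative change of 0.02 (adjusted p = 0.43). Over all members 9 lay wholly above the controls (10.3%), against 19% of all tested genes. Wholly below lay 2, Ndufs5 and Cox8b, the latter with a deleted mean under the dim filter. Of all tested genes 4.46% lay wholly below.

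Complex II, which oxidises succinate and belongs to both the chain and the citric acid cycle, held 1 member near the threshold. Sdhd, a membrane anchor subunit, read 8.92, 8.98, 8.79 and 8.90 in the deleted tumours and 8.57, 8.62, 8.19 and 8.05 in the controls. The groups did not overlap, the relative change was 0.37 (95% interval -0.001 to 0.733), and the limma adjusted p was 0.0718. The flavoprotein Sdha (0.01, adjusted p = 0.381), the iron-sulfur subunit Sdhb (-0.24, adjusted p = 0.813, with deleted replicate 2 above the other deleted tumours) and the other anchor Sdhc (-0.13, adjusted p = 0.877) overlapped between groups. None of the 4 was called, against 4.93% of all tested genes higher and 1.6% lower. At an unadjusted limma p under 0.05, 1 was higher and 0 lower, against 23.1% and 7.32% of all tested genes.

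Complex III, which hands electrons from ubiquinol to cytochrome c, held no gene that stood out. None of its 8 genes was called or passed an unadjusted limma p of 0.05. Of all tested genes 23.1% were higher and 7.32% lower at that p. All 8 genes of complex III overlapped between groups, and their relative changes ran from -0.29 to 0.22. Their median was -0.06, and 0.05 without control replicate 2, so it has no settled sign. The core protein Uqcrc2 was at 0.22 (adjusted p = 0.205) and Uqcrc1 at -0.09 (adjusted p = 0.735). The Rieske iron-sulfur protein Uqcrfs1 was at 0.10 (adjusted p = 0.285) and Cyc1, cytochrome c1, at -0.02 (adjusted p = 0.488).

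Cycs, the somatic cytochrome c that carries electrons to complex IV and triggers the apoptosome when released, read 9.98, 9.53, 9.77 and 9.60 in the deleted tumours and 9.67, 9.27, 9.37 and 9.09 in the controls. On this probe set the groups overlapped, since deleted replicates 2 and 4 lay below control replicate 1. The relative change there was 0.20 (95% interval -0.18 to 0.58, limma adjusted p = 0.169). Other, dimmer probe sets of Cycs differed in this. On 17358271 the groups overlapped (8.88 to 9.21 in deleted tumours, 8.35 to 9.05 in controls). They did not on 17466723 (6.30 to 6.62 against 5.83 to 6.22), nor on a pair with identical values (6.67 to 7.12 against 5.47 to 6.47).

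Complex IV, cytochrome c oxidase, held the lowest member, Cox8b. None of its 17 tested genes was called by limma, against 4.93% of all tested genes higher and 1.6% lower. At an unadjusted p under 0.05, 3 were higher and 2 lower, against 23.1% and 7.32% of all tested genes. The median relative change was -0.20, but it was 0.02 without control replicate 2, and 7 genes lay above the median tested gene and 10 below. Cox8b, the heart and skeletal muscle form of subunit VIII, read 3.88, 4.27, 4.15 and 4.40 in the deleted tumours and 4.41, 5.01, 4.88 and 4.63 in the controls. It was lower in every deleted tumour, with deleted replicate 4 just below control replicate 1, and had a relative change of -0.73 (SE 0.18, adjusted p = 0.0798). These values lie near the limit of the dim filter (4.38), which Cox8b passed only through the controls. Its mean was 4.17 in the deleted tumours and 4.73 in the controls, and deleted replicates 1, 2 and 3 read under the limit. Cox7c, at the other end, read 6.76, 6.75, 6.86 and 6.45 against 6.74, 5.98, 5.61 and 5.81, a relative change of 0.50 (adjusted p = 0.0929), with control replicate 1 within the deleted range.

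The tissue isoforms of complex IV are given beside their ubiquitous partners, each as a change of its own probe set. Among the ubiquitous forms Cox4i1 was at -0.38 (adjusted p = 0.356), Cox6a1 at -0.20 (adjusted p = 0.906), Cox6b1 at 0.19 (adjusted p = 0.237), Cox7a2 at 0.15 (adjusted p = 0.233), Cox7b at -0.32 (adjusted p = 0.516) and Cox8a at -0.39 (adjusted p = 0.341). None was called. Of the muscle forms, Cox6a2 was at -0.53 (adjusted p = 0.233) and Cox7a1 at -0.06 (adjusted p = 0.805). Cox4i2, the isoform tied to low oxygen, was at -0.40 (adjusted p = 0.525), with control replicate 2 at 6.80 and the other controls at 5.84 to 5.90 (-0.08 without that array), and the testis form Cox6b2 at -0.23 (adjusted p = 0.906). The testis forms Cox7b2 and Cox8c did not pass the filter, with values of 2.78 to 3.42 and 3.04 to 3.64 over the 8 arrays. Of 8 muscle marker genes 4 passed the filter and none was called, also at an unadjusted p under 0.05, with mean levels of 5.02 to 5.38 in the deleted tumours and 5.21 to 5.56 in the controls.

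Ndufa4 was at 0.29 (adjusted p = 0.151) and Ndufa4l2, a gene induced by hypoxia, at 0.35 (adjusted p = 0.129). Cox7a2l, which joins complexes III and IV into supercomplexes, was at -0.51 (adjusted p = 0.163), with deleted tumours at 4.92 to 5.36 and controls at 5.25 to 5.54.

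Complex V, the ATP synthase, was centred on the median tested gene, with a median relative change of -0.02 over 17 genes (0.01 without control replicate 2), 7 above and 10 below. None was called by limma, against 4.93% of all tested genes higher and 1.6% lower. At an unadjusted p under 0.05, 2 were higher and 0 lower, against 23.1% and 7.32% of all tested genes. Atp5pb, subunit b of the peripheral stalk, read 9.90, 9.73, 9.62 and 9.76 in the deleted tumours and 9.52, 9.17, 9.19 and 9.16 in the controls. All deleted tumours were above all controls, and control replicate 1 stood above the other 3. Its relative change was 0.32 (SE 0.15, adjusted p = 0.0667). Atp5j, another part of that stalk, was at 0.44 (adjusted p = 0.161) with overlapping groups. The catalytic subunit Atp5b was at -0.04 (95% interval -0.33 to 0.24, adjusted p = 0.508).

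The lowest values of complex V rested on control replicate 2. Atp5l, subunit g, read 8.91 on that array and 6.97 to 7.44 on the other 7, giving a relative change of -0.71 (adjusted p = 0.304), or -0.20 without that array. Atp5k, subunit e, read 8.26 there and 6.88 to 7.36 elsewhere, giving -0.60 (adjusted p = 0.264), or -0.23 without it. Both proteins lie where ATP synthase dimers join.

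Within each genotype the members differed between tumours. Their mean deviation from each gene's mean over the 8 arrays was 0.17, 0.08, 0.11 and 0.00 in the deleted tumours and 0.11, -0.14, -0.10 and -0.24 in the controls. Control replicate 1 therefore lay among the deleted tumours. It was the highest of the controls for 60 of 87 members (69%), against 33.5% of all tested genes. Control replicate 4 was the lowest control for 36 members (41.4%), against 11.3% of all tested genes. Deleted replicate 1 was the highest of all 8 arrays for 32 members (36.8%), against 13.9% of all tested genes.

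Control replicate 2, the array of low contrast, was the lowest control for 39.1% of members and for 61.8% of all tested genes. After subtracting each array's own median deviation over tested genes, the members' mean was 0.36 on that array, against -0.20 to 0.08 on the other 7. The assembly factors alone had mean deviations of 0.32, 0.26, 0.31 and 0.21 in the deleted tumours and -0.13, -0.60, -0.11 and -0.24 in the controls, and the groups did not overlap.

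**Figure D3:**
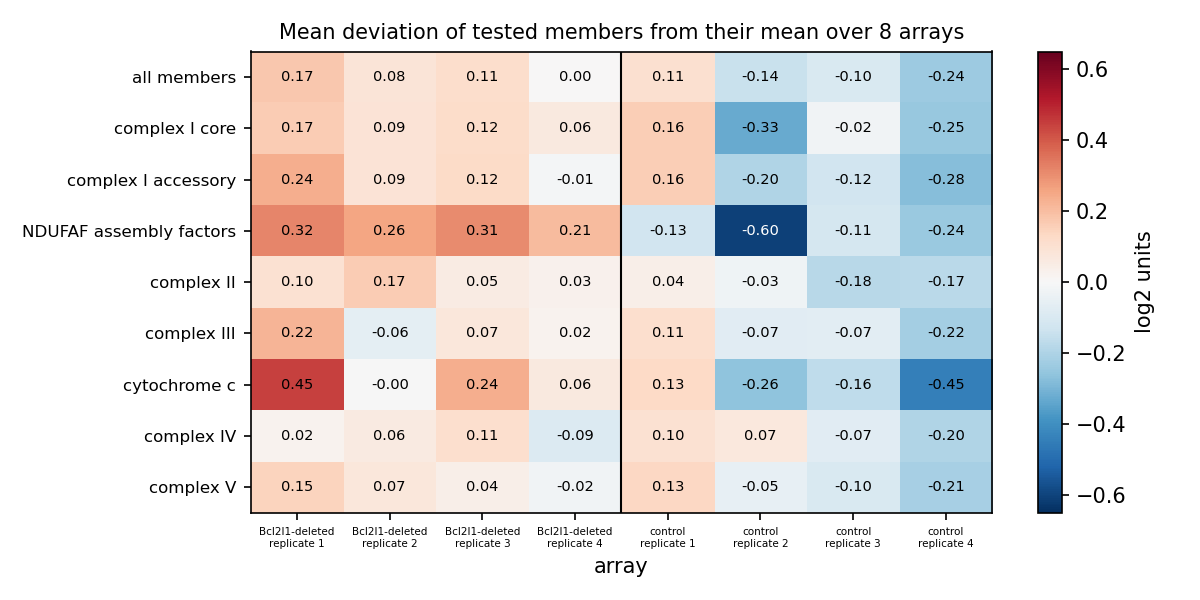
Mean deviation, in log2 units, of the tested genes of each complex (rows) from their mean over the 8 arrays (columns), with deleted tumours left of the line and controls right of it. Control replicate 1 is above 0 in all rows but the NDUFAF assembly factors (-0.13), and control replicate 4 is below 0 in all of them.

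A gene can have several probe sets, and they did not always give the same difference. The 91 members had 104 probe sets, and 10 genes had several, so that 13 probe sets were not used; 5 of these had a difference of the opposite sign, in Atp5d, Atp5e, Cox7b, Ndufa12 and Ndufa8. For Cox5b the probe set used differed by 0.23 between group means, while another read 5.66 ± 0.16 in the deleted tumours and 4.50 ± 0.24 in the controls (SD, n = 4 each). The second did not overlap between groups. For Cox7b the probe set used differed by -0.15 and another by 0.80, without overlap (5.56 to 6.24 in deleted tumours, 4.22 to 5.49 in controls). For Atp5d the probe set used differed by 0.02 and another, nearly as bright (mean 9.50 against 9.66), by -0.37. On that other Atp5d probe set every deleted tumour (9.25 to 9.38) lay below every control (9.53 to 9.97). The 5 probe sets of Cycs differed by 0.30 to 0.70, and a pair of them held identical values. Many of these genes have processed pseudogenes, so probe sets may also read copies. That includes the brightest probe set, which stood for the gene. Where each probe set lies in the genome was not checked.

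The partner subunits encoded in mitochondrial DNA lay mostly below the median tested gene. None of the 10 measured was called by limma. At an unadjusted p under 0.05, 1 was higher and 1 lower, against 23.1% and 7.32% of all tested genes. The median relative change was -0.31, with 9 genes below 0, and -0.16 without control replicate 2. CYTB of complex III was at -0.42 (adjusted p = 0.353) and ND3 of complex I at 0.22 (adjusted p = 0.155). ND6, encoded on the opposite strand to the other subunits, read 7.50, 7.58, 7.46 and 7.72 in the deleted tumours and 8.17, 10.51, 8.15 and 7.87 in the controls. Every deleted tumour was below every control, with control replicate 2 far above the rest, and the relative change was -1.28 (adjusted p = 0.147). Without that array it was -0.58 and ND6 was called lower (adjusted p = 0.0318).

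Other genes that help build the chain lay mostly above the median tested gene. They include complex I assembly factors without an Ndufaf name, such as Acad9 and Timmdc1. Of 38 further assembly factors 2 rose (5.26%) and none was called lower, against 4.93% higher and 1.6% lower of all tested genes. Of the 38, 32 lay above the median tested gene and 6 below. Their median relative change was 0.23, or 0.15 without control replicate 2. At an unadjusted limma p under 0.05, 16 were higher (42.1%) and 0 lower, against 23.1% and 7.32% of all tested genes. Sdhaf4, which protects the Sdha flavoprotein before it joins complex II, rose with a relative change of 0.80 (SE 0.24, adjusted p = 0.0398). Coa6, which takes part in copper delivery to complex IV, rose with one of 0.52 (SE 0.17, adjusted p = 0.0385). Both had groups that did not overlap, though control replicate 1 stood above the other controls for Sdhaf4. Across 21 other settings the call was lost in 11 for Sdhaf4 and in 13 for Coa6. The list's count of 2 was 6 without control replicate 1 or 2, 1 without deleted replicate 3, and 0 without any other single array.

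The mitochondrial ribosome, which translates the subunits encoded in mitochondrial DNA, gave 6 calls. Of 71 genes starting with Mrpl or Mrps these 6 rose (8.45%) and none was called lower, against 4.93% and 1.6% of all tested genes. At an unadjusted limma p under 0.05, 35 were higher (49.3%) and 0 lower, against 23.1% and 7.32% of all tested genes. The median relative change of the 71 genes was 0.20, with 60 above the median tested gene and 11 below. The calls were Mrpl20 at 1.17 (adjusted p = 0.0315), Mrpl11 at 0.88 (adjusted p = 0.0391), Mrpl49 at 0.83 (adjusted p = 0.0468), Mrpl54 at 0.80 (adjusted p = 0.0267), Mrpl13 at 0.45 (adjusted p = 0.0425) and Mrpl45 at 0.39 (adjusted p = 0.049). The calls on Mrpl54, Mrpl20, Mrpl11 and Mrpl13 were lost in 8, 9, 11 and 12 of 21 other settings. The count of 6 itself rested on single arrays: it was 19 without control replicate 1 and 13 without control replicate 2, 1 without control replicate 3 or deleted replicate 3, and 0 without control replicate 4 or without deleted replicate 1, 2 or 4. The share of all tested genes called higher moved too, to 10.4% without control replicate 1 and 8.95% without control replicate 2. It was 2.3% and 0.76% without control replicates 3 and 4. Without deleted replicates 1, 2, 3 and 4 in turn it was 0.103%, 0.238%, 1.65% and 1.19%. An ordinary linear model called 0 of the ribosome list, against 0.238% of all tested genes. No test compared these lists with the subunits.

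In the citric acid cycle and pyruvate dehydrogenase list, which feeds the chain with NADH and succinate, 1 of 16 genes rose, Suclg2 of succinyl-CoA ligase (0.50, SE 0.16, limma adjusted p = 0.0369). That is 6.25% of the list, against 4.93% of all tested genes called higher, and none was called lower. At an unadjusted limma p under 0.05, 6 were higher (37.5%) and 0 lower, against 23.1% and 7.32% of all tested genes. The call on Suclg2 was lost in 13 of 21 other settings, among them averaged probe sets (adjusted p = 0.15). The count was 3 without control replicate 1, 1 without control replicate 2, and 0 without any other single array. The median relative change was 0.11.

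Markers of several cell types differed between the genotypes. Beside the counts below, 4.93% of all tested genes were called higher and 1.6% lower. At an unadjusted limma p under 0.05 these shares were 23.1% and 7.32%. The granule neuron progenitor list, the lineage of the tumour, had 0 of 10 genes called by limma, with 1 higher at an unadjusted p under 0.05, and mean levels of 9.732 to 9.989 in the deleted tumours and 9.325 to 10.001 in the controls. Differentiating granule neuron markers had 7 of 15 called lower, with mean levels of 6.76 to 7.90 against 7.92 to 8.96, and choroid plexus markers 2 of 6, with 5.61 to 6.05 against 6.93 to 7.37. Oligodendrocyte markers had 2 of 10 called lower, with overlapping levels of 6.19 to 7.54 and 7.07 to 8.47. Microglial markers had 7 of 13 called higher, with mean levels of 8.19 to 8.37 against 6.84 to 7.79, and endothelial markers 4 of 8, with 7.02 to 7.19 against 6.18 to 6.65. Astrocyte markers had 3 of 9 called higher, with overlapping levels of 9.18 to 9.79 and 8.24 to 9.46. Of 6 Purkinje cell markers none was called, also at an unadjusted p under 0.05, with levels of 5.86 to 9.45 and 7.93 to 9.05, and the 1 erythroid marker measured alone, Slc4a1, was at -0.02. These counts also moved with single arrays: leaving each out gave 1 to 10 differentiating granule neuron, 1 to 2 choroid plexus and 0 to 4 oligodendrocyte markers lower, and 0 to 11 microglial, 0 to 4 endothelial and 0 to 6 astrocyte markers higher. Both microglial and endothelial counts were 0 without deleted replicate 1 or 2. Without those arrays in turn, 0.103% and 0.238% of all tested genes were called higher. The part of these cell types in the values of the respiratory chain genes was not tested.

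The members' share of calls was set beside that of all tested genes under 21 other settings of the analysis. It was above the share of all tested genes in 1 of them, without control replicate 1, where 12.6% of members and 10.4% of all tested genes were called higher and 2.49% of all tested genes lower. It was at or below that share in the other 20.

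Settings that rescale or weight the arrays were these. With arrays centred on all probe sets, 8.05% of members and 8.61% of all tested genes were called higher. With centring on tested genes the shares were 1.15% and 2.51%, and with quantile normalization 1.15% and 5.39%. Array weights, which give less weight to arrays that scatter, called 14.9% of members and 15.7% of all tested genes higher, and 6.78% of all tested genes lower.

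The models with a covariate called 0 members. With the receptor median as covariate 0 members were called, against 1.76% of all tested genes higher. With Xist, which marks the sex of the animals, 0 members were called, against 0.953%. Xist read 10.08, 9.63, 4.91 and 4.70 in the deleted tumours and 10.54, 9.89, 4.53 and 10.33 in the controls. Both groups therefore mixed the sexes, and not in equal parts. With an ordinary linear model 0 members were called, against 0.238%.

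Filters, priors and the choice of probe set gave 1.1% to 3.45% of members. The shares of members and of all tested genes called higher were 1.1% and 1.75% with no filter, 2.56% and 5.84% with a filter at the 50th percentile, 3.45% and 5.04% with an intensity trend, 3.45% and 4.68% with a robust prior, and 3.45% and 4.91% with averaged probe sets. Each array was also left out. Without deleted replicates 1, 2, 3 and 4 in turn 0 members were called, against 0.103%, 0.238%, 1.65% and 1.19% of all tested genes. Without control replicates 2, 3 and 4 the members' shares were 6.9%, 1.15% and 0%, against 8.95%, 2.3% and 0.76%.

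**Figure D4:**
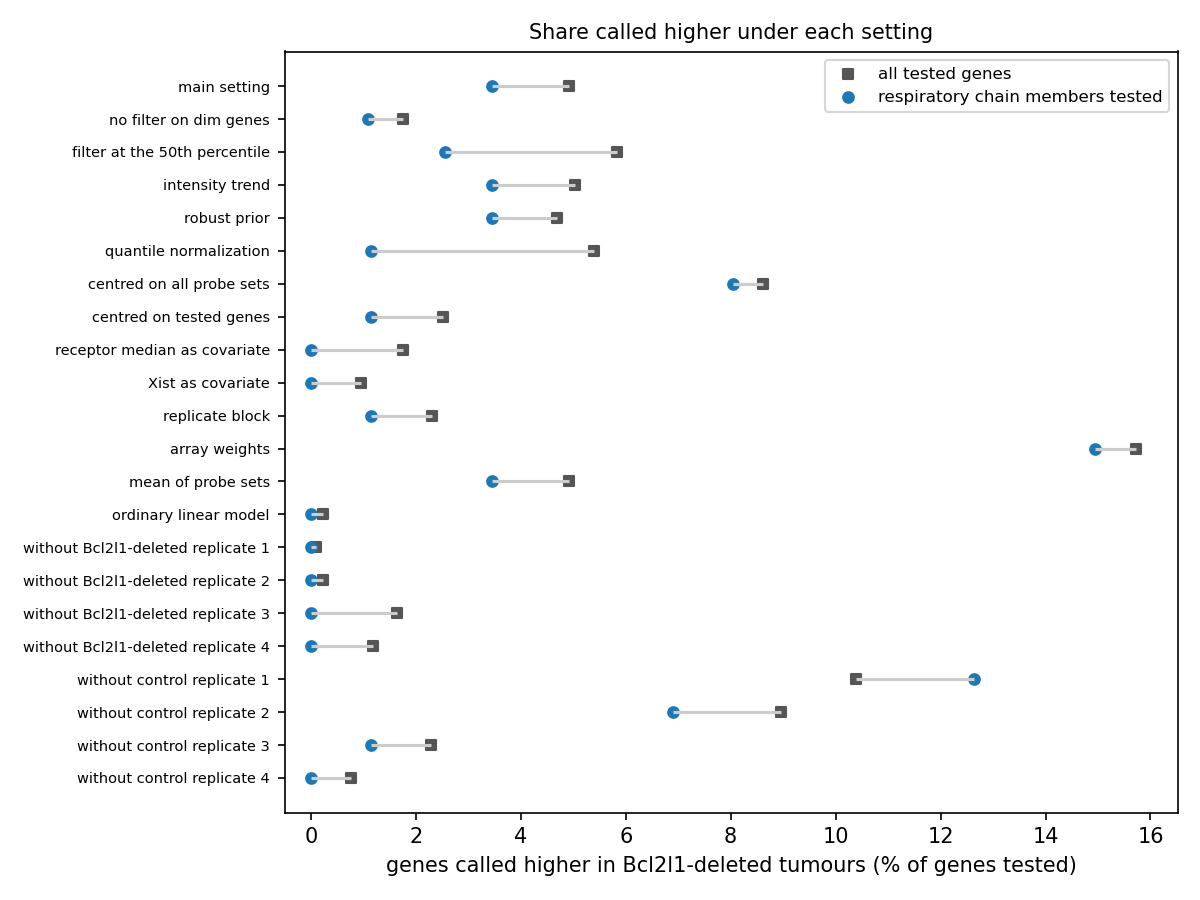
Share of genes called higher in Bcl2l1-deleted tumours (%, horizontal axis) under the reported setting and 21 others (rows), for the tested respiratory chain genes (circles) and all tested genes (squares). The circles lie left of the squares except without control replicate 1, and both shares are highest with array weights, 14.9% and 15.7%.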

How the data were processed

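Deposited values are log2 RMA expression values made by the authors with the Partek software, per the labels; the sources used here name no version, genome build or options. RMA includes background correction, normalization and probe summarisation, and differences close to background come out too small. Groups follow the sample titles, since the label for Bcl2l1 status says deleted on control samples too. Per the series' design text, the arrays of a group are from replicate animals.

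Of 41345 probe sets 23521 name 1 gene, 1814 several and 16010 none, per the platform annotation; 23328 matched the RefSeq gene table (GRCm38.p6) by Entrez identifier, with 0 symbols changed. The probe set with the highest mean stood for a gene. A dim filter at the 30th percentile of gene means (4.38) removed 6654 genes and left 15526 to test. The test was limma's moderated one (version 3.58.1, R 4.3.3), two-sided, on all 8 arrays without covariates. Precision is limited by 4 arrays per group. The fit was tested on simulated data for 15526 genes. At the adjusted threshold it called 63% of the genes shifted by 1 log2 unit and 95% of those shifted by 2, with 8 false calls.

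Named genes are, per complex, up to 6 called by smallest p in each direction or else the 2 with the smallest p, the complex IV isoforms, Sdha to Sdhd, Cyc1, Cycs, the member of each complex with the highest mean, and up to 4 called genes of each related list. All other genes named were chosen after their values were seen. Members, lists and tests were chosen with earlier results of these data known. Alternatives were a stricter and no dim filter, a robust or trended prior, quantile normalization, centring, the receptor median or Xist as covariates, a replicate block, array weights, averaged probe sets, an ordinary linear model and leaving out each array. Protein sequences were not used here.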

Additional observations from a re-analysis of the deposited data

Results flagged for a closer look

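In 5 of 106 groups of 4 arrays examined, 1 array stood apart from the other 3 by Dixon's test at its 95% critical value, which chance gives in about 1 of 20 groups. Ndufv2 read 10.54 in deleted replicate 1 and 10.29 to 10.31 in the other deleted tumours. Sdhb read 8.38 in deleted replicate 2 and 8.13 to 8.16 in the others. Atp5pb read 9.52 in control replicate 1 and 9.16 to 9.19 in the other controls. Sdhaf4 read 7.34 in control replicate 1 and 6.29 to 6.40 in the other controls. Cox4i2 read 6.80 in control replicate 2 and 5.84 to 5.90 in the other controls.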

How the results depend on the processing

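The count of members called higher, 3 as reported, was 1 with no filter on dim genes, with quantile normalization, with centring on tested genes and with a replicate block, 7 with centring on all probe sets, 13 with array weights, and 0 with the receptor median as covariate, with Xist as covariate and with an ordinary linear model; leaving out each array gave 0 to 11. The count of members called lower, 0 as reported, was 1 with array weights, and 0 to 1 on leaving out each array. The count over all tested genes, 1013 as reported (765 higher, 248 lower), was 548 with no filter, 200 with Xist, 508 with a replicate block, 3494 with array weights and 43 with an ordinary linear model, and 20 to 2100 on leaving out each array. Centring turned the split of calls over all tested genes to 1337 higher and 171 lower (on all probe sets) or 390 and 699 (on tested genes), and the receptor median to 273 and 404; the fitted change of the median tested gene was 0.17 as reported, 0.34 and -0.09 with the 2 centrings and 0.02 with the receptor median. The causes were not tested. Replicate numbers do not pair the arrays: the correlation of deviations between same-numbered arrays was 0.04, 0.02, -0.14 and 0.05. With the number as a block 1.15% of members and 2.31% of all tested genes were called higher.

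Over 42 named genes and 21 alternatives, 877 values were had: 750 kept their direction and side of the threshold, 111 lost a call, 16 gained one and 0 reversed a call; the relative change turned sign in 43, all of them uncalled. Bcl2l1 was called lower in all 21 (adjusted p from 0.000349 to 0.0367). The median relative change of subunits and cytochrome c lay between -0.07 and 0.14 and was above 0 in 16 of 21 settings, so it has no settled sign. With 4 arrays per group, changes as small as the median SE of a member (0.17) were not detectable.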

Other observations

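Regulators of mitochondrial biogenesis, which control transcription and copying of mitochondrial DNA and of respiratory genes, did not move as a group. Of 20 tested none was called by limma, and 10 lay on each side of the median tested gene. At an unadjusted p under 0.05, 5 were higher and 3 lower, against 23.1% and 7.32% of all tested genes. The coactivator Ppargc1b was lower in every deleted tumour (5.304 to 5.498) than in every control (5.768 to 6.586). Its relative change was -0.83 (limma adjusted p = 0.0629, or 0.0279 without control replicate 2). The related Ppargc1a was at -0.02 (adjusted p = 0.805), or -0.27 without that array (adjusted p = 0.723). The mitochondrial transcription and ribosomal RNA methylation factor Tfb1m read 6.83 to 7.17 in the deleted tumours and 5.22 to 6.55 in the controls, a relative change of 0.68 (adjusted p = 0.0729, or 0.47 with an adjusted p of 0.0238 without control replicate 2). Tfam, which packages mitochondrial DNA, was at 0.12 (adjusted p = 0.242) and Nrf1 at -0.08 (adjusted p = 0.665). These genes were named after their values were seen.

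Genes that move ATP, phosphate and metabolites across the mitochondrial membranes gave 0 calls of 7 by limma, with a median relative change of 0.12. At an unadjusted p under 0.05, 2 were higher and 1 lower, against 23.1% and 7.32% of all tested genes. The ADP/ATP carriers Slc25a4 and Slc25a5 were at 0.31 (adjusted p = 0.116) and 0.11 (adjusted p = 0.238), and the channel Vdac1 of the outer membrane at 0.13 (adjusted p = 0.174). The mitochondrial creatine kinase Ckmt1 was at -1.31 (adjusted p = 0.109), with deleted tumours at 4.59 to 6.56 and controls at 5.64 to 7.04. Differentiating granule neuron markers were lower in the same tumours (6.76 to 7.90 against 7.92 to 8.96), and their part in the value of Ckmt1 was not tested.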
